A study of Mus musculus with 8 samples.

Results

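The enzymes of the tricarboxylic acid (TCA) cycle, of the pyruvate dehydrogenase complex and of the reactions that feed and drain the cycle were followed in pancreatic islets that overexpress uncoupling protein 2 (UCP2). The list held 35 genes, named by their known function, of the 26894 gene symbols on the array. βUCP2Tg mice carry a transgene in which the rat *Ins2* promoter, which is active in β-cells, drives a mouse *Ucp2* cDNA, and per the study's methods they were backcrossed to C57BL6/J and set against littermate wild-type (WT) mice. All samples were islets of male mice, and the methods give 8 to 12 weeks as the age at which islets were isolated. Before RNA was taken, the islets of both genotypes had been kept for 8 h in culture medium with glucose at 200 mg/dL. RNA of 4 βUCP2Tg and 4 WT samples was hybridised, each to its own one-colour Agilent array. The sources used here do not say whether a sample came from 1 mouse or from several. The spread is therefore that between samples, which may in part be technical.

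Glucose carbon enters the mitochondrion as pyruvate. Pyruvate dehydrogenase turns it into acetyl-CoA, which citrate synthase joins to oxaloacetate, and the cycle then oxidises it while making NADH and GTP. β-cells are known for a second entry, in which pyruvate carboxylase makes oxaloacetate directly (anaplerosis), and for the export of malate and citrate that malic enzymes and isocitrate dehydrogenases convert back with the production of NADPH. The malate-aspartate shuttle carries the electrons of glycolytic NADH inwards, which matters in a cell with little lactate dehydrogenase.

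Levels are given as log2 of the array signal minus the 75th percentile of the same array, so that a level of 0 is the brightness of that percentile. A level describes 1 probe and is not set against that of another probe. Differences are βUCP2Tg minus WT on the log2 scale, with the standard error (SE) from limma fitted over all 35363 probes tested, and a gene was called at a Benjamini-Hochberg adjusted p under 0.05 and a change over 1.5-fold. *Ucp2*, the check of the labels, had levels of 7.71, 7.50, 7.33 and 6.99 in βUCP2Tg islets and 1.18, 0.92, 1.03 and 1.46 in WT islets. A second *Ucp2* probe differed by 0.44 (SE 0.12, adjusted p = 0.0987) and was not called, and with both probes averaged the difference was 3.34. The arrays lay on 1 slide with each genotype in a row of its own, so that position and genotype cannot be told apart. Of 9 β-cell marker genes all were well above background, and their summed linear level was 1035 to 1363 on the βUCP2Tg arrays and 1291 to 1340 on the WT arrays. Of these genes 7 were lower in βUCP2Tg islets (median log2 fold change -0.14) and none was called. The groups did not overlap for 2 of the 9, beside 13.1% of all genes. The acinar list was lower in βUCP2Tg islets for all 11 genes tested (median log2 fold change -1.81, none called), but its summed level spread widely, from 14.1 to 259 against 21.8 to 450 on the WT arrays. *Ptf1a*, the transcription factor that defines acinar cells, was not tested because it was at background. The endothelial sum was 25.4 to 32.2 on the βUCP2Tg arrays and 13.1 to 23.9 on the WT arrays. Of its 5 genes 2 were lower, 1 did not overlap between the groups (beside 13.1% of all genes) and none was called. In whole islets, fewer cells of a type and less RNA per cell cannot be told apart, and the part of these cells in the values below was not tested.

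No member was called. Of the 35 genes, 34 were well above background on at least 4 arrays and were tested, and the smallest adjusted p among them was 0.0530 by limma, for *Fh1*. Over all genes, 0.482% were called by the same rule. An unadjusted p under 0.05 was reached by 8 members (23.5%), 4 higher and 4 lower, beside 24.5% of all genes. The βUCP2Tg and WT arrays did not overlap for 6 members (17.6%), beside 13.1% of all genes. Both shares lay near those of all genes. The members' median log2 fold change was 0.05 (0.01 without WT 3 and 0.09 without βUCP2Tg 4 or WT 1), against 0.03 over all genes tested, and the median size of the change was 0.16 against 0.20. For 25 of the 34 members the 95% interval of the difference lay wholly within 1.5-fold in either direction. The members whose groups separated were *Fh1*, *Mdh1*, *Ogdhl* and *Dld*, which were lower in βUCP2Tg islets, and *Me3* and *Suclg2*, which were higher. None of these 6 directions turned under any alternative run. Groups without overlap keep their direction when any array is left out, and other filters and tests leave the difference as it is. Those runs therefore could not turn it and show no stability.

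**Figure D1:**
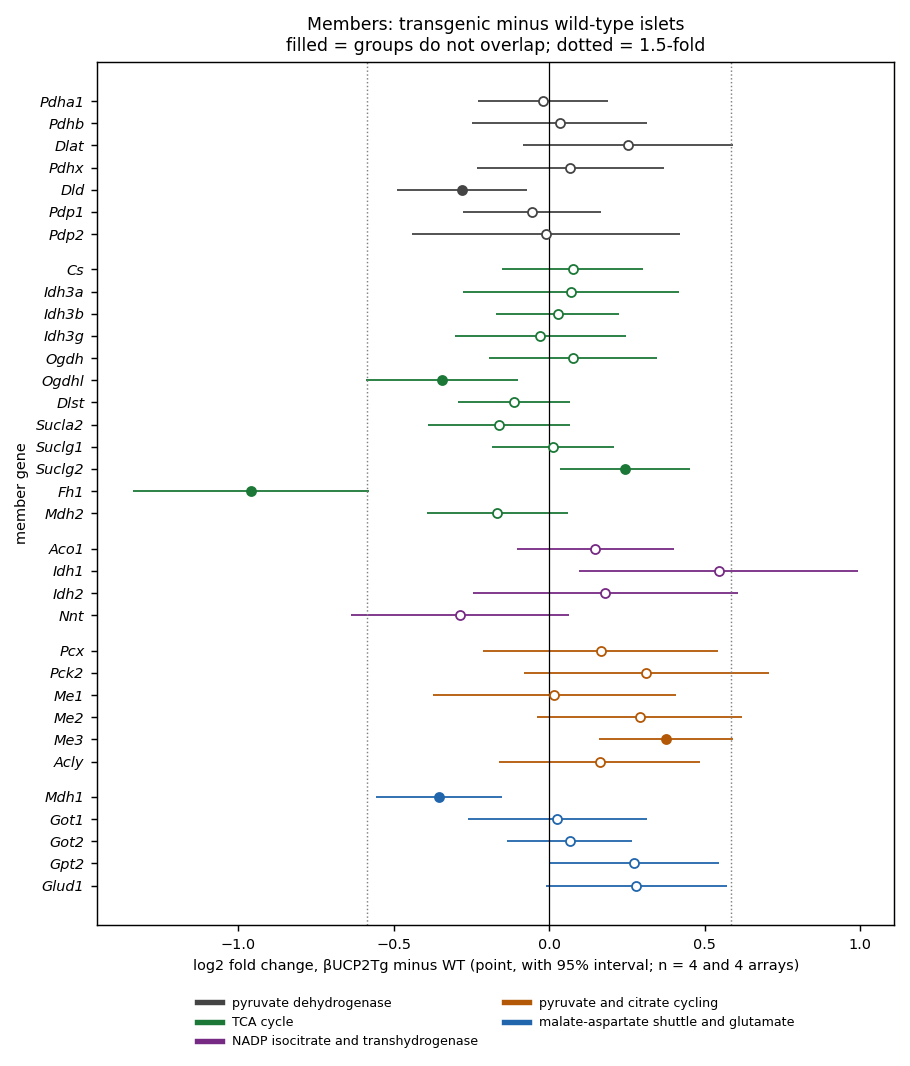
Log2 fold change, βUCP2Tg minus WT, of the 34 tested members (x axis; point with its 95% interval, 4 arrays per group), ordered and coloured by role, with filled points for genes whose groups did not overlap. Most points lie within 1.5-fold (dotted lines), and *Fh1* at -0.96 stands farthest from 0.

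The pyruvate dehydrogenase complex was measured through 7 genes, and 6 of their intervals lay within 1.5-fold. *Pdha1*, the α-subunit of the E1 component that is switched by phosphorylation, had levels of 1.88, 1.87, 1.99 and 1.87 in βUCP2Tg islets and 1.99, 1.79, 1.86 and 2.04 in WT islets. The groups overlapped fully, and the difference was -0.02 (SE 0.09, adjusted p = 0.909 by limma). A second *Pdha1* probe, not described by a RefSeq mRNA, gave -0.34 (SE 0.13) with overlap. With its probes averaged, the *Pdha1* difference was -0.18. *Pdhb*, the other E1 subunit, differed by 0.03 (SE 0.12) and *Pdhx*, which anchors E3 to the complex, by 0.07 (SE 0.13). Further probes not described by a RefSeq mRNA lay apart from these. For *Pdhb* they gave 0.23 (SE 0.15) and -0.52 (SE 0.16) with overlap, and for *Pdhx* -0.49 (SE 0.16) with no overlap. *Dlat*, the E2 acetyltransferase, differed by 0.25 (SE 0.15), and its interval, from -0.08 to 0.59, was the one that passed 1.5-fold. *Dld* encodes E3, the dihydrolipoamide dehydrogenase that the pyruvate and 2-oxoglutarate dehydrogenases share. Its levels were 1.52, 1.58, 1.59 and 1.68 in βUCP2Tg islets and 1.71, 1.95, 1.93 and 1.90 in WT islets. Every βUCP2Tg array lay below every WT array, with only a narrow gap between βUCP2Tg 4 and WT 1. The difference was -0.28 (SE 0.09, adjusted p = 0.121 by limma). The phosphatases that reactivate E1, *Pdp1* and *Pdp2*, differed by -0.06 (SE 0.10) and -0.01 (SE 0.19), but a second *Pdp2* probe gave 0.40 (SE 0.13, adjusted p = 0.122 by limma) with overlap.

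Among the 12 genes of the cycle itself, 6 differences were above and 6 below 0, with a median of -0.01. *Fh1*, fumarate hydratase, which turns fumarate into malate, gave the widest separation of all members. It has 1 probe on the array, on which the separation rests. Levels were 4.74, 4.62, 4.65 and 5.32 on βUCP2Tg arrays 1 to 4 and 5.65, 5.81, 5.77 and 5.93 on the WT arrays. βUCP2Tg 4 stood well above the other βUCP2Tg arrays, yet below each WT array. The mean was 4.83 ± 0.33 (SD, n = 4) against 5.79 ± 0.12 (SD, n = 4), a difference of -0.96 (SE 0.17), or 51.5% of the WT level. The adjusted p of 0.0530 by limma just missed the threshold. The two-sided exact permutation test gave p = 0.0286, the smallest that 4 against 4 arrays allow. Every gene whose groups do not overlap has this p, so it adds nothing to the separation. Without βUCP2Tg 4 the difference was -1.12 and *Fh1* was called (adjusted p = 0.0106 by limma), as were 3.52% of all genes. Without WT 1 it was -1.01 and again called (adjusted p = 0.0192), as were 11.4% of all genes. With any of the other 6 arrays left out, it was not called, and over all alternatives run its adjusted p ranged from 0.00131 to 0.192 with the difference between -1.17 and -0.83. βUCP2Tg 4 also stood apart in a list of 12 hypoxia response genes, whose summed level was 334 there, 159 to 162 on the other βUCP2Tg arrays, 260 on WT 1 and 436 to 480 on the other WT arrays. The part of that difference in the *Fh1* values was not tested.

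The other genes of the cycle differed less than *Fh1*. *Mdh2*, the mitochondrial malate dehydrogenase, had a difference of -0.17 (SE 0.10, adjusted p = 0.321 by limma). *Cs*, citrate synthase, had levels of 4.59, 4.55, 4.49 and 4.45 in βUCP2Tg islets and 4.52, 4.32, 4.32 and 4.60 in WT islets. Its groups overlapped, with a difference of 0.08 (SE 0.10, 95% interval -0.15 to 0.30). It lay between 0.03 and 0.13 with each array left out in turn, and was 0.16 with quantile normalization or normexp background correction. *Idh3a*, the catalytic subunit of the NAD-dependent isocitrate dehydrogenase, had levels of 2.37, 2.30, 2.38 and 2.26 against 2.60, 1.88, 2.17 and 2.39. The WT arrays spread over a range that held all 4 βUCP2Tg arrays, and the difference was 0.07 (SE 0.15). Its partner subunits *Idh3b* and *Idh3g* differed by 0.03 (SE 0.09) and -0.03 (SE 0.12).

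The 2-oxoglutarate dehydrogenase step has a general E1 enzyme, *Ogdh*, and a second E1 gene, *Ogdhl*, best known from brain. *Ogdh* had levels of 4.37, 4.34, 4.29 and 4.11 in βUCP2Tg islets and 4.41, 4.09, 4.01 and 4.30 in WT islets. The difference was 0.08 (SE 0.12) between overlapping groups. It was 0.01 without WT 3, 0.14 without WT 1 and 0.16 with quantile normalization. *Ogdhl* had levels of -2.11, -2.09, -2.24 and -2.19 against -1.83, -2.04, -1.74 and -1.64. All βUCP2Tg arrays lay below all WT arrays, and the difference was -0.35 (SE 0.11, adjusted p = 0.114 by limma), or -0.23 with normexp background correction. *Dlst*, the E2 component of this complex, differed by -0.11 (SE 0.08). Its 3 further tested probes, none described by a RefSeq mRNA, gave -0.20 (SE 0.10) with no overlap, and -0.58 (SE 0.20) and -0.56 (SE 0.25) with overlap.

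Succinyl-CoA synthetase pairs the α-subunit *Suclg1* with an ATP-forming (*Sucla2*) or a GTP-forming (*Suclg2*) β-subunit. *Suclg2* had levels of -0.36, -0.30, -0.23 and -0.36 in βUCP2Tg islets and -0.54, -0.68, -0.60 and -0.41 in WT islets. All βUCP2Tg arrays lay above all WT arrays, by a difference of 0.24 (SE 0.09, adjusted p = 0.153 by limma). A second *Suclg2* probe also separated the groups (0.49, SE 0.13, adjusted p = 0.0982), and the third gave 0.18 (SE 0.12) with overlap. *Sucla2* had a difference of -0.16 (SE 0.10) and *Suclg1* of 0.01 (SE 0.09). The *Suclg2* probe is shown because the β-subunits are close relatives and the reading depends on which of them it binds:
Suclg2 probe: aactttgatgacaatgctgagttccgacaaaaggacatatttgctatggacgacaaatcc
The sequence reads through without a stop codon in 2 of its 3 forward frames.

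**Figure D2:**
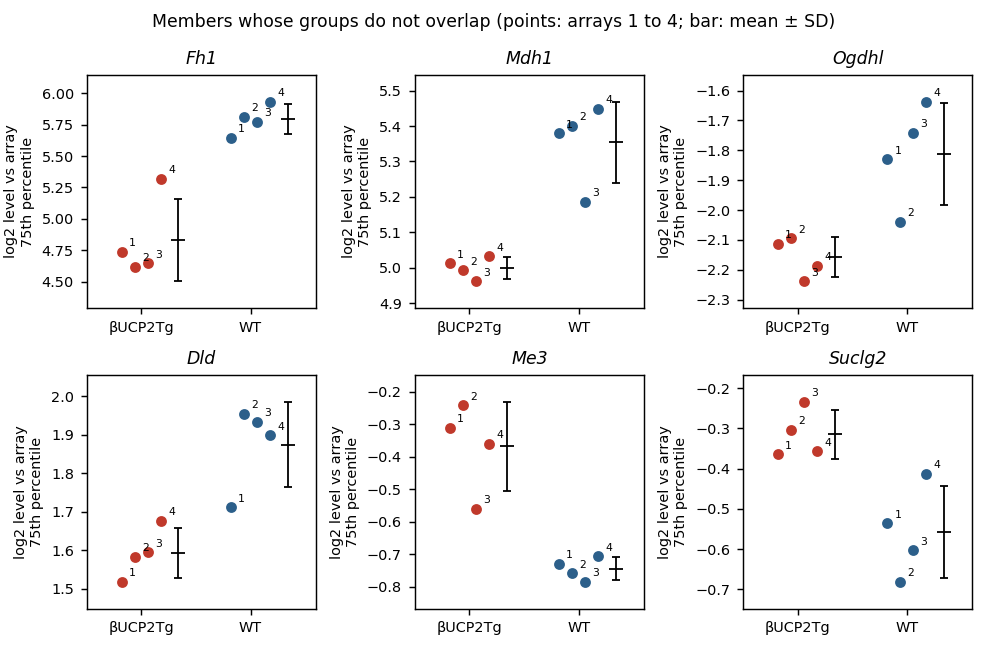
Level of each of the 6 members whose groups did not overlap, per array (y axis: log2 signal minus the array's 75th percentile; numbers: replicate; black bar: mean ± SD, n = 4), with βUCP2Tg in red and WT in blue. In *Fh1*, βUCP2Tg 4 at 5.32 lies between the other βUCP2Tg arrays and the WT arrays, and the y axes differ between panels.

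Outside the cycle, isocitrate is made and used by *Aco1*, the cytosolic aconitase that also senses iron, and by the NADP-dependent enzymes *Idh1* (cytosol) and *Idh2* (mitochondria). *Idh1* had levels of -0.93, -1.05, -0.999 and -1.48 in βUCP2Tg islets and -1.43, -2.01, -1.90 and -1.31 in WT islets. βUCP2Tg 4 lay within the WT range, and the difference was 0.55 (SE 0.20, adjusted p = 0.142 by limma), the highest among the probes used for the members. A second *Idh1* probe gave 0.27 (SE 0.16). *Idh2* differed by 0.18 (SE 0.19) and *Aco1* by 0.15 (SE 0.11).

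*Nnt*, the transhydrogenase that makes mitochondrial NADPH from NADH, is known to carry a deletion in C57BL/6J mice. Its brightest probe had levels of 1.41, 1.40, 1.42 and 1.34 in βUCP2Tg islets, which is a narrow range, and 1.27, 1.63, 1.80 and 2.02 in WT islets. WT 1 lay below all βUCP2Tg arrays, and the difference was -0.29 (SE 0.15, adjusted p = 0.275 by limma). A second probe gave -0.28 (SE 0.16) and the third -0.46 (SE 0.13, adjusted p = 0.100) with no overlap, while the remaining probe was well above background on none of the 8 arrays. The *Nnt* difference was -0.42 without WT 1 (adjusted p = 0.0416 by limma, under 1.5-fold) and -0.17 without WT 4 (adjusted p = 0.450).

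The enzymes of pyruvate and citrate cycling all had differences above 0 (6 of 6 tested, median 0.23), with *Me1* at only 0.02 and none of them called. Over all tested probes with a gene symbol and a RefSeq mRNA in the description, 48.4% had a difference below 0. *Pcx*, pyruvate carboxylase, the main anaplerotic enzyme of β-cells, had levels of 3.79, 3.78, 3.70 and 3.31 in βUCP2Tg islets and 3.68, 3.35, 3.17 and 3.72 in WT islets. Each group held high and low arrays, and the difference was 0.17 (SE 0.17, 95% interval -0.21 to 0.54). It was 0.06 without WT 3 and 0.28 without βUCP2Tg 4. *Me1*, the cytosolic malic enzyme, had levels of 2.64, 2.82, 2.70 and 2.11 against 2.48, 2.82, 2.48 and 2.43, a difference of 0.02 (SE 0.17). The sign of *Me1* turned when any of 6 arrays was left out, so that it had no direction. *Me3*, the mitochondrial NADP-dependent malic enzyme, had levels of -0.31, -0.24, -0.56 and -0.36 in βUCP2Tg islets and -0.73, -0.76, -0.78 and -0.71 in WT islets. The WT arrays were tightly grouped below all βUCP2Tg arrays, and the difference was 0.38 (SE 0.09, adjusted p = 0.0885 by limma). Over the alternatives it stayed between 0.33 and 0.44. Its probe, shown because the other *Me3* probes of the array were well above background on none of the 8 arrays, reads without a stop in 2 forward frames:
Me3 probe: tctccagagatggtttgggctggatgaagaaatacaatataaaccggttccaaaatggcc
*Me2*, the mitochondrial NAD-dependent malic enzyme, had a difference of 0.29 (SE 0.14) and *Acly*, which splits exported citrate, of 0.16 (SE 0.14). *Pck2*, the mitochondrial PEP carboxykinase, had a difference of 0.31 (SE 0.17). Its cytosolic counterpart *Pck1*, the gluconeogenic form of the liver, was well above background on 1 of 8 arrays (βUCP2Tg 3) and was not tested.

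In the malate-aspartate shuttle, *Mdh1*, the cytosolic malate dehydrogenase, separated the groups on each of its 3 probes. The brightest gave levels of 5.01, 4.99, 4.96 and 5.03 in βUCP2Tg islets and 5.38, 5.40, 5.19 and 5.45 in WT islets. The βUCP2Tg arrays agreed closely with each other and lay below all WT arrays, with a difference of -0.35 (SE 0.09, adjusted p = 0.0885 by limma), or 78.3% of the WT level. It was -0.22 with quantile normalization or normexp, and over all alternatives its adjusted p ranged from 0.0448, with the 3 probes averaged (-0.51), to 0.251. The second probe gave -0.31 (SE 0.09, adjusted p = 0.102). The third, for which the authors' table has no description, gave levels of -1.04, -1.35, -1.28 and -1.02 against -0.38, -0.09, -0.28 and -0.51. Its difference was -0.86 (SE 0.13, adjusted p = 0.0456 by limma), and it was the only one of the members' 68 tested probes to be called, beside 0.41% of all probes. The second probe and the third are shown because their differences between the genotypes were unlike in size. What each binds was not tested. The second reads without a stop in 2 forward frames, and the third opens with a stretch (in capitals) that 34 probes of the array share:
Mdh1 second probe: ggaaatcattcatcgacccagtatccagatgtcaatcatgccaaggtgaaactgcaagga
Mdh1 called probe, bases 1 to 30: AATCCCAGCtcttgggaggctctgtgattt
The aspartate aminotransferases *Got1* and *Got2* differed by 0.03 (SE 0.13) and 0.07 (SE 0.09). *Glud1*, glutamate dehydrogenase, which feeds glutamate into the cycle, had levels of 3.76, 3.79, 3.92 and 3.65 in βUCP2Tg islets and 3.57, 3.38, 3.28 and 3.77 in WT islets. WT 4 lay within the βUCP2Tg range, and the difference was 0.28 (SE 0.13, adjusted p = 0.211 by limma). A second *Glud1* probe gave 0.27 (SE 0.10, adjusted p = 0.142) with no overlap, and the third gave 0.10 (SE 0.13). *Gpt2*, the mitochondrial alanine aminotransferase, had a difference of 0.27 (SE 0.12, adjusted p = 0.197).

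Pairs of enzymes with the same or a joint task were compared within each array, which removes the scaling between arrays. Of 10 pairs tested, 3 separated the groups (beside 22.8% of all 561 pairs that the tested members can form), each at p = 0.0286 by the two-sided exact permutation test, the smallest possible, and at an adjusted p of 0.0952 over the 10 pairs. With this smallest p, a few separating pairs of 10 cannot pass an adjusted p of 0.05. The *Sucla2* minus *Suclg2* difference was 0.40 lower in βUCP2Tg islets (change -0.40, SE 0.06). The *Ogdh* minus *Ogdhl* difference was higher by 0.42 (SE 0.12), and *Idh1* minus *Idh2* by 0.37 (SE 0.09). The last rests on the probes used, since the second probes of *Idh1* and *Idh2* differed by 0.27 (SE 0.16) and 0.31 (SE 0.20). *Mdh1* minus *Mdh2* changed by -0.19 (SE 0.06) with overlap (p = 0.0571 by the exact test). *Me1* minus *Me3* changed by -0.36 (SE 0.19, p = 0.0857 by the exact test) and *Idh3a* minus *Idh3g* by 0.10 (SE 0.13), both with overlap. The pairs *Got1* and *Got2*, *Pdha1* and *Pdhb*, *Idh3a* and *Idh3b*, and *Pdp1* and *Pdp2* changed by -0.05 to 0.04. The *Pdp1* and *Pdp2* value also rests on the probes used, since their second probes differed by -0.06 (SE 0.10) and 0.40 (SE 0.13).

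The members' median SD was 0.08 among the βUCP2Tg arrays and 0.18 among the WT arrays, beside a median size of 0.16 for the difference between genotypes. WT 3 had the lowest level for 12 of the 34 members and WT 2 for 10, while WT 4 had the highest for 9 and WT 1 for 8. The median deviation of the members from their own means was -0.14 on WT 3, -0.11 on WT 2, and 0.09 on both WT 1 and WT 4. On the βUCP2Tg arrays it lay between -0.06, on βUCP2Tg 4, and 0.08. Without WT 1, an adjusted p under 0.05 was reached by 6 members (*Dld*, *Fh1*, *Nnt*, *Me3*, *Mdh1* and *Gpt2*), which is 17.6% of 34, beside 17.9% of all genes.

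**Figure D3:**
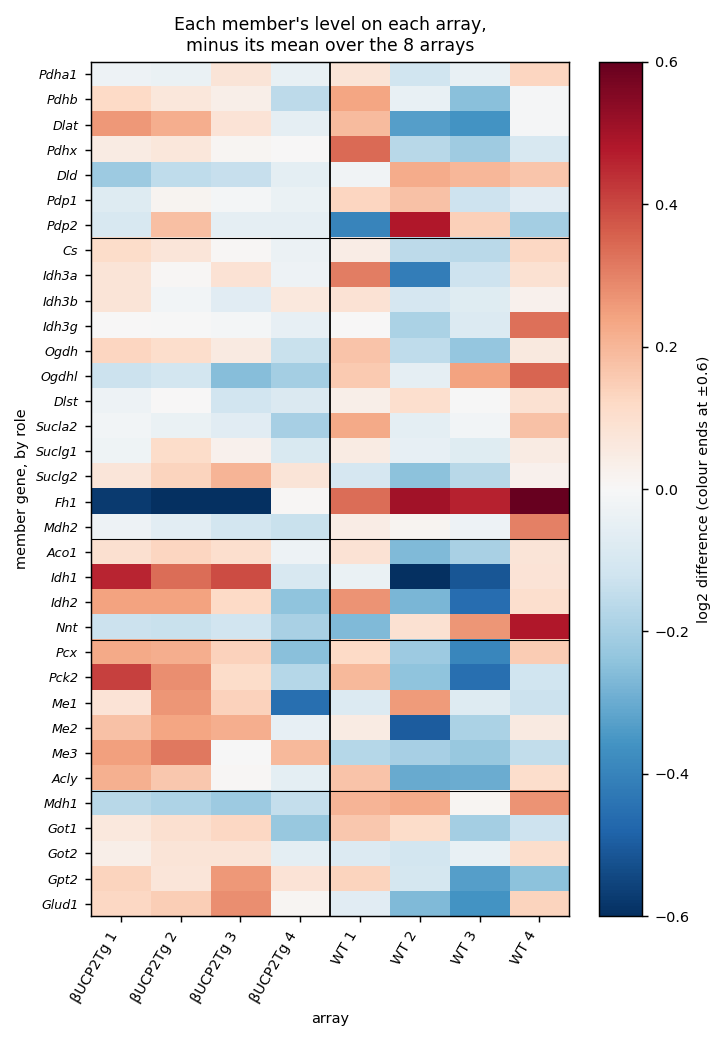
Level of each of the 34 tested members (rows, by role) on each of the 8 arrays (columns), minus the gene's mean over all arrays (colour, log2 scale, ends at ±0.6). The *Fh1* row is low on βUCP2Tg 1 to 3, near neutral on βUCP2Tg 4 and high on the WT arrays, and many other rows change between WT 2 and 3 on one side and WT 1 and 4 on the other.

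Where a member had several probes, those that the authors' table describes by a RefSeq mRNA mostly lay near the probe used for the gene, with *Pdp2*, *Idh1* and the second *Suclg2* probe as the widest exceptions. Over 19 such further probes the median log2 fold change was 0.17, with 4 below 0. Over the 15 further probes without a RefSeq mRNA in the description it was -0.40, with 11 below 0, and 7 of these were lower and none higher at an unadjusted p under 0.05 by limma. Of all 7926 such probes on the array that were tested and have a gene symbol, 62.5% were below 0 and 22.0% were lower at that p. *Idh3g* was -0.03 on the probe used and -0.62 (SE 0.20) on such a probe, and *Pdhx* was 0.07 and -0.49 (SE 0.16). Over all tested probes with a gene symbol, the median was 0.01 for those with a RefSeq mRNA in the description and -0.12 for those without.

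**Figure D4:**
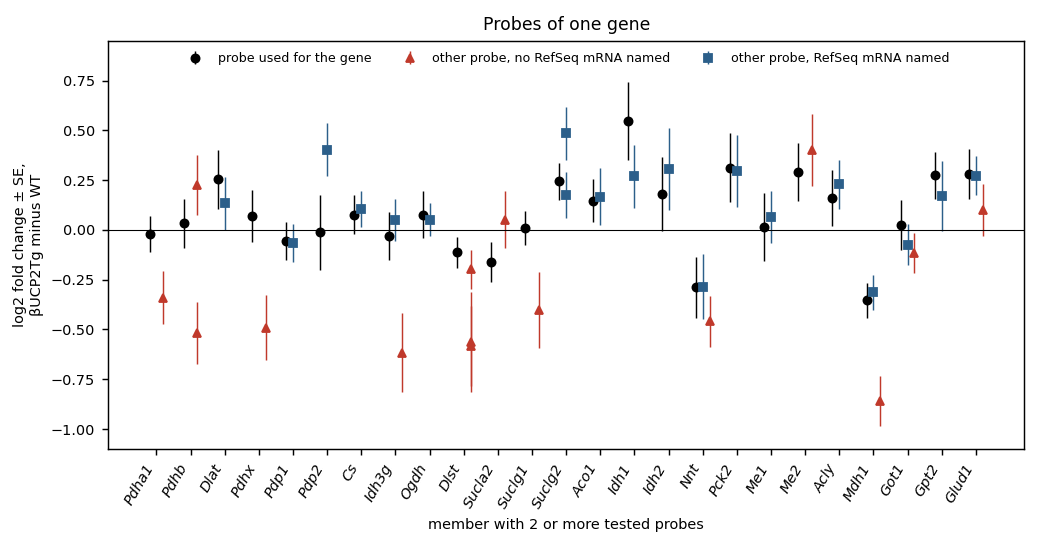
Log2 fold change ± SE, βUCP2Tg minus WT, of every tested probe of the members that have 2 or more (x axis: gene), with the probe used for the gene in black, other probes described by a RefSeq mRNA in blue and those not so described in red. The red points reach -0.86 (*Mdh1*), while the blue points of a gene mostly lie beside its black point.

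Around the members, 39 further genes of the same pathways were tested (kinases of pyruvate dehydrogenase, carriers, lipoylation, glutamine and propionate metabolism, succinate dehydrogenase), and none was called. An unadjusted p under 0.05 was reached by 9 of them (23.1%, beside 24.5% of all genes), 6 higher and 3 lower. The groups did not overlap for 2 of them, *Pdk2* and *Slc25a12* (5.13%, beside 13.1% of all genes). *Pdk2*, a kinase that switches pyruvate dehydrogenase off, had levels of 0.10, -0.14, -0.05 and -0.60 in βUCP2Tg islets and -0.74, -2.02, -1.94 and -1.23 in WT islets. The 2 groups were separated by a narrow gap between βUCP2Tg 4 and WT 1, and the difference was 1.31 (SE 0.30, adjusted p = 0.0823 by limma). Without βUCP2Tg 4 it was 1.45 and called (adjusted p = 0.0472 by limma), as were 3.52% of all genes. Without WT 1 it was 1.56 and called (adjusted p = 0.0154 by limma), as were 11.4% of all genes. Over the alternatives the adjusted p of *Pdk2* ranged from 0.00528 to 0.240. *Pdk1*, a kinase known to be raised by hypoxia, had levels of 1.02, 0.94, 0.90 and 2.52 against 2.05, 2.52, 2.68 and 3.03. βUCP2Tg 4 lay within the WT range, and the difference was -1.22 (SE 0.38, adjusted p = 0.115 by limma). *Pdk1* was called without βUCP2Tg 4, as were 3.52% of all genes, but not without WT 1. *Pdk3* gave -0.51 (SE 0.21) and *Pdk4* 0.35 (SE 0.42), both with overlap. *Slc25a12*, the aspartate-glutamate carrier of the shuttle, had levels of 2.40, 2.55, 2.50 and 2.30 in βUCP2Tg islets and 2.29, 2.22, 2.14 and 2.28 in WT islets, a difference of 0.20 (SE 0.09, adjusted p = 0.205 by limma). With all its probes averaged, the *Slc25a12* difference was 0.06 (adjusted p = 0.686). *Gls2*, a glutaminase that was named after its values were seen, had levels of -2.38, -2.70, -1.72 and -1.11 against -1.45, -0.30, -0.56 and -0.36, with overlap between βUCP2Tg 4 and WT 1. Its difference was -1.31 (SE 0.38, adjusted p = 0.107 by limma). It was called without βUCP2Tg 4, as were 3.52% of all genes, and without WT 1, as were 11.4%. The succinate dehydrogenase subunits *Sdha* to *Sdhd* differed by -0.16 to 0.05.

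**Figure D5:**
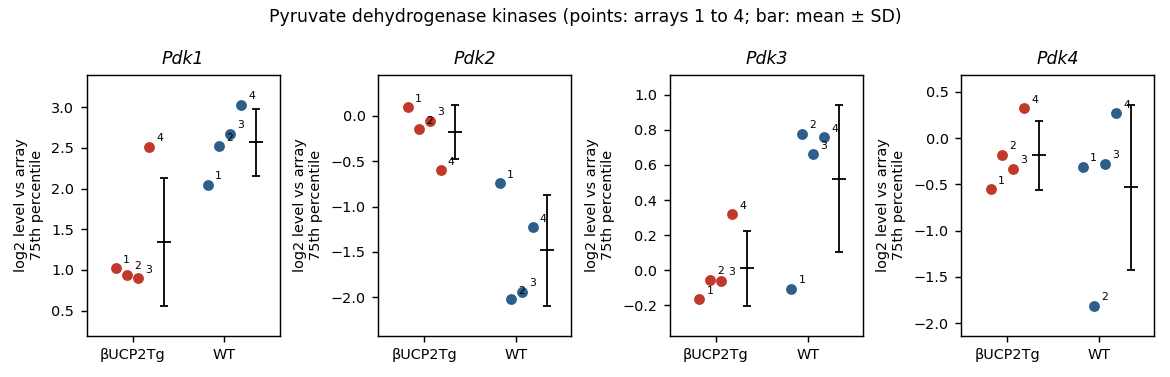
Level of the 4 pyruvate dehydrogenase kinase genes per array (y axis: log2 signal minus the array's 75th percentile; numbers: replicate; black bar: mean ± SD, n = 4), with βUCP2Tg in red and WT in blue. *Pdk2* is higher on every βUCP2Tg array, and in *Pdk1* the value of 2.52 on βUCP2Tg 4 lies among the WT arrays.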

How the data were processed

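The authors scanned the arrays with Agilent Feature Extraction (9.1 in the submitters' processing notes, 10.7.3.1 in the file headers) and deposited the intensity of each spot after background subtraction, on a linear scale. A deposited GeneSpring table gives log2 normalized values, which equal log2 of the same intensity minus a constant per array. Its fold changes and p-values from a moderated test were not used. Here, control and outlier spots were left out, log2 of the intensity was taken relative to its 75th percentile on that array, and the spots of a probe were averaged. Of 56605 probes, those well above background (at least 50% of kept spots) on at least 4 of 8 arrays were tested with limma 3.58.1 (lmFit, eBayes) in R 4.3.3 with data.table (version 1.17.8). Of several probes of a gene, that with the highest mean over the authors' normalized columns was used. Levels were given for members whose groups did not overlap and for 8 central enzymes. *Idh1*, *Gls2*, *Pdk1*, *Pdk3* and *Pdk4* were named after their values were seen. The members, lists and tests were chosen with earlier results of these data known. Alternatives were other filters, scalings, background correction, the deposited values, other tests, a replicate block and leaving out arrays. The comparison was tested on simulated data. A sequence and a gene of the lists are not reported here. No spot was saturated, and the number of arrays limits the precision.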

Additional observations from a re-analysis of the deposited data

Results flagged for a closer look

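Within the groups of 4 arrays of 37 genes (74 groups), 4 held an array that stood apart by Dixon's test at its 95% limit, where chance gives about 1 in 20. They were *Fh1* on βUCP2Tg 4 (level 5.32 against 4.62 to 4.74, ratio 0.8295), *Pdha1* on βUCP2Tg 3 (1.99 against 1.87 to 1.88, ratio 0.868), *Pdp2* on βUCP2Tg 2 (6.02 against 5.75 to 5.79, ratio 0.842) and *Me1* on WT 2 (2.82 against 2.43 to 2.48, ratio 0.869). The *Fh1* ratio passed the limit only narrowly.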

How the results depend on the processing

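With 4 arrays per group, the count of members called moved between 0 and 1. It was 1 (*Fh1*) with probes well above background on all 8 arrays (adjusted p = 0.0425, beside 0.838% of all genes called), with normexp (0.0373, beside 1.12%), with an intensity trend in limma (0.0312, beside 1.18%), with the probes of each gene averaged (0.0463, beside 0.924%) and with the methods' t-test unadjusted, which called 7.3% of all genes, and 0 under the other settings with all arrays. Leaving out each array in turn gave 0 to 1 members called, 5 to 13 at an unadjusted p under 0.05 (13 without WT 1, beside 36.4% of all genes) and 0 to 8 pathway neighbours called (3 without βUCP2Tg 4, beside 3.52% of all genes, and 8 without WT 1, beside 11.4%). With normexp 1 pathway neighbour was called (*Pdk2*, 1.09, adjusted p = 0.0482), and with the unadjusted t-test 3. Leaving out βUCP2Tg 4 and WT 1 together, chosen after seeing the data, gave 2 members called (*Fh1* and *Idh1*, beside 15.7% of all genes), 13 at an unadjusted p under 0.05 (beside 40.2%), 16 without overlap (beside 46.6%), 9 neighbours called and a member median of 0.16 (beside 0.05 over all genes). Differences near 0 changed sign. With each array left out in turn, *Me1* ranged from -0.0693 to 0.169 and was below 0 without any of βUCP2Tg 1, 2 and 3 and WT 1, 3 and 4, *Idh3a* ranged from -0.0560 to 0.184 and was below 0 without WT 2, and *Pdha1* ranged from -0.0638 to 0.0197 and was above 0 without WT 1 or WT 4. Without both βUCP2Tg 4 and WT 1, *Pdha1* was 0.0138. The cause of these moves was not tested. The count of isoenzyme pairs past an adjusted p of 0.05 was 0 as reported, with normexp and with the deposited values, the settings run for the pairs, which the smallest possible p makes likely and which shows no stability. Same-numbered arrays shared no pairing beyond the number (correlations of 0.44, -0.05, -0.01 and -0.24), and with the replicate number as a block 0 members and 0 neighbours were called and 6 members reached an unadjusted p under 0.05, beside 22.2% of all genes.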

Other observations

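The 9-base stretch AATCCCAGC at the start of the third *Mdh1* probe occurs in 34 probes of the array, of which 26 were tested. Of these, 22 had a difference below 0, with a median log2 fold change of -0.29, 8 (30.8%) were lower and 0 higher at an unadjusted p under 0.05 by limma, and 1, the *Mdh1* probe, was called. Without the *Mdh1* probe, 21 of 25 had a difference below 0, with a median of -0.26, and 7 (28.0%) reached an unadjusted p under 0.05. Over all probes tested, 53.2% had a difference below 0, and 25.2% reached that p in either direction. The stretch was chosen after its probe's values were seen.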
